A study of Homo sapiens with 32 samples.

Results

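The genes described here are 32 genes of ribosome biogenesis and the nucleolus, the nuclear compartment in which ribosomes are built. They were listed by name for the known role of their proteins, with earlier results of these data already known, and each was found as 1 of the 57773 rows of both count tables. All 32 passed the filter on low counts after 6 h and after 24 h. Reads came from HEK293 cells, a line derived from human embryonic kidney, that had been transiently transfected with an expression plasmid for AT1R, the type 1 receptor of angiotensin II. Every group, the control included, carried this plasmid and was kept in medium without serum when the stimuli were added. The 4 conditions were control, AII (angiotensin II, 1 nmol/l), EGF (epidermal growth factor, 10 µg/l) and AII+EGF, each after 6 h and after 24 h. There were 4 libraries per condition and time, except for AII+EGF after 24 h with 3. A transient transfection is a mixture of cells that took up different amounts of plasmid, and RNA of all these cells was pooled in each library, so that fewer cells with a transcript and less transcript per cell cannot be told apart. The labels give no separate cultures, so that p-values measure only the spread between these libraries, which may be technical.

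A ribosome is made by transcribing ribosomal RNA from many gene copies with RNA polymerase I, modifying and cutting the transcript, and assembling it with ribosomal proteins in a small and a large subunit. Small nucleolar RNAs (snoRNAs) guide the chemical modifications and some of the cuts, and each works in a particle with a fixed set of core proteins. Growth factors are known to raise ribosome production in proliferating cells, and many genes of this machinery are known targets of the transcription factor MYC. The question put to the data was whether EGF, AII or both moved these transcripts, and whether both ligands together did more than the sum of their single effects, which is the receptor crosstalk the study is about.

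After 6 h, the libraries held 3881841 to 8540815 counts, of which 81.4% to 84.7% fell on protein-coding genes, and 17007 to 43054 counts per library fell on the 32 genes. After 24 h, libraries held 6646227 to 33070903 counts, but only 20.8% to 63.4% fell on protein-coding genes, and the spliceosomal RNA U1 took 8.90% to 57.2% of all counts (0.0314% to 0.2999% after 6 h). The spread between libraries, as the biological coefficient of variation, was 10.6% after 6 h and 29.1% after 24 h, so values after 24 h are less precise. The part of U1 in this precision was not tested. Of the HEK293 markers, VIM, NEFL, NEFM, KRT8 and KRT18 were detected in every library, whereas PAX2 had 0 to 10 counts, and markers of blood, endothelial, podocyte, liver, fibroblast and tubule cells had at most 7. The stimulus check EGR1, an immediate early gene, was higher with EGF by 4.48 ± 0.17 (log2 fold change ± SE) after 6 h and by 2.53 ± 0.19 after 24 h. The plasmid-borne AGTR1 (AT1R) was at 950.1 to 1568 FPM after 6 h, and was higher with AII+EGF than in control by 0.45 ± 0.08 (FDR = 0.000498). Its value was 0.34 ± 0.08 with AII alone (FDR = 0.987), with all AII libraries above all control libraries, 0.45 ± 0.08 for AII+EGF against EGF (FDR = 0.093) and 0.002 ± 0.076 with EGF alone, and its part in the values below was not tested.

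Levels are given as FPM, fragments per 1000000 after TMM scaling, and levels of different genes are compared only per kilobase of exon. The length is that of all annotated exons of a gene together, such as 2138 bases for FBL and 8919 for NCL. It can exceed the length of the transcript present, so the order depends on the annotation. In the control after 6 h, the methyltransferase of box C/D snoRNPs, FBL (fibrillarin), had the highest mean by this measure at 107 FPM per kilobase. Before division by length, FBL was at 230 FPM and NCL at 590 FPM. The RNA-binding protein NCL (nucleolin) followed at 66.2, the stem cell protein GNL3 (nucleostemin) at 57.97, and the helicase DDX21 at 44.1 FPM per kilobase. At the other end of the order stood POLR1C at 6.52, NIP7 at 5.65, UTP15 at 3.5 and PPAN at 1.81 FPM per kilobase. Neighbours in the middle of this order, such as NOP58 (38.1), NPM1 (37.7) and NOP56 (36.1), lay within their spread over libraries. The level of NPM1 also depends on its pseudogene rows, as given below. The spread between the 4 control libraries was smallest for NPM1, with a coefficient of variation of 2.51%, and largest for PPAN with 38.3%, RRP9 with 29.6% and FBL with 27.9%.

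Transcripts of part of this machinery were higher with EGF alone after 6 h. The sum of the 32 genes was 4167 to 4478 FPM in the 4 control libraries and 4772 to 5224 FPM in the 4 EGF libraries, so the groups did not overlap. Abundant genes weigh most in this sum, such as NCL at 590 FPM and DDX21 at 409 FPM in control. It therefore does not show a shift of every gene. Of the 32 genes, 6 were higher at a false discovery rate (FDR) below 0.05 in the edgeR quasi-likelihood test, which is what called means unless another tool is named. None was lower, against a background of 3.6% of all 18618 genes tested that were higher and 2.37% that were lower. The 32 genes were more precise than all genes in this and the other comparisons, so that equal changes are more readily called among them. Here the median SE was 0.10 for the 32 genes and 0.15 for all genes. With 13237 protein-coding genes tested alone, 1328 were called in either direction, and 7 of the 32. The 6 were DDX21, NOLC1, NOP10, UTP15, WDR43 and GNL3, and their rises lay between 1.20-fold and 1.62-fold. Of the 32 genes, 28 had a positive log2 fold change, with a median of 0.20, while the median of all genes was -0.01. In 9 genes all 4 EGF libraries lay above all 4 control libraries, as did 6.61% of all genes tested. DESeq2 and voom each called 9 of the 32 genes and the edgeR exact test 5. Only NOP10 also passed the stricter filters of the study (fold change above 1.5 and more than 5 FPM), as did 1.73% of all genes in either direction.

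**Figure D1:**
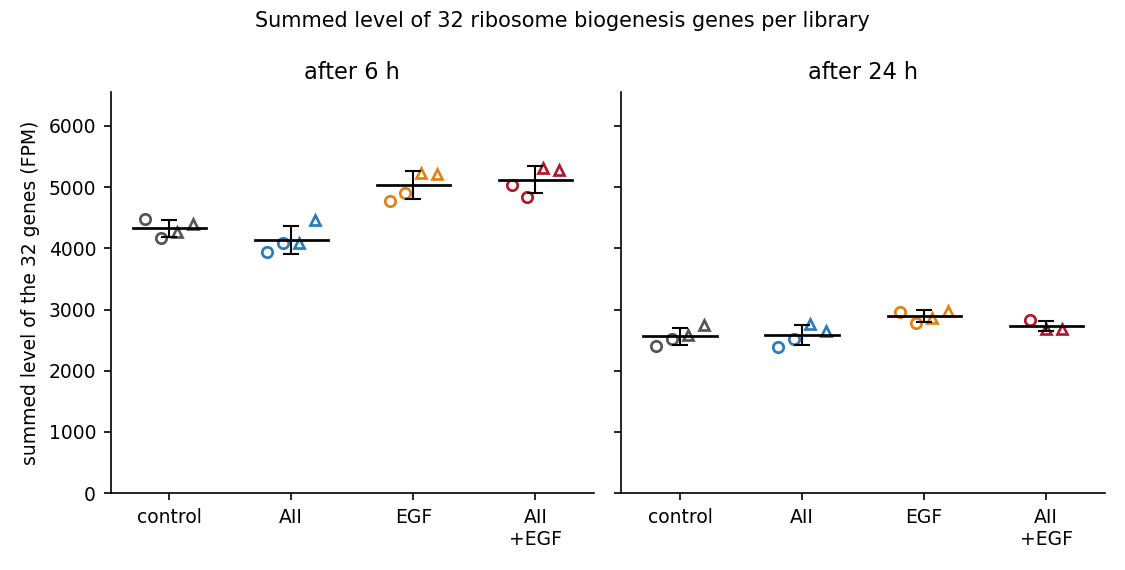
Summed level of the 32 ribosome biogenesis genes in FPM (y axis, from 0) by condition (x axis) after 6 h (left) and 24 h (right). Abundant genes such as NCL and DDX21 weigh most in the sum. Each symbol is 1 library (circles, low run of library numbers; triangles, high run), and bars show mean ± SD; after 6 h the EGF and AII+EGF libraries, at 4772 FPM or more, all lie above the control and AII libraries, at 4478 FPM or less.

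DDX21, an RNA helicase that links RNA polymerase I and II transcription with rRNA processing, showed the clearest response (ENSG00000165732, chr10:70715891-70744824, plus strand, hg19). Its level in the 4 control libraries was 377, 389.7, 433 and 437 FPM, and in the 4 EGF libraries 591, 534, 636 and 628 FPM. Every EGF library lay well above every control library, with a log2 fold change of 0.54 ± 0.08 (1.46-fold, FDR = 0.000137, edgeR quasi-likelihood test). NOLC1, a phosphoprotein that chaperones snoRNPs between nucleolus and Cajal bodies (ENSG00000166197, chr10:103911933-103923628, plus strand), was at 157, 164, 159 and 166 FPM in control and at 199, 202, 218 and 213 FPM with EGF. The control libraries differed little from each other, and the rise of 0.36 ± 0.07 was called at FDR = 0.0019.

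NOP10, the smallest core protein of the box H/ACA snoRNPs that convert uridine to pseudouridine (ENSG00000182117, chr15:34631360-34635381, minus strand), had the largest fold change. It rose from 9.95, 15.9, 12.6 and 14.2 FPM to 20.4, 22.3, 19.7 and 24.1 FPM, which is 1.62-fold (log2 0.70 ± 0.15, FDR = 0.00638). The low level makes it less precise than DDX21, but the groups again did not overlap. UTP15 and WDR43 belong to the small subunit processome, the large complex that forms on the nascent rRNA. UTP15 was at 18.3, 22.3, 25.5 and 22.3 FPM in control and 28.2, 28.8, 36.1 and 33.8 with EGF (0.52 ± 0.13, FDR = 0.0139), and this call was lost without the third EGF library (FDR = 0.0576). WDR43 was at 133, 145, 151 and 143 FPM in control and 192, 162, 179 and 177 with EGF (0.31 ± 0.08, FDR = 0.0152), a call that was lost without the first EGF library (FDR = 0.0534). Both genes had all EGF libraries above all control libraries. GNL3, a nucleolar GTPase of the large subunit pathway, was at 199, 176, 179 and 197 FPM in control and 212, 209.9, 253 and 224 with EGF. It was just inside the threshold, with 0.26 ± 0.08 (FDR = 0.0494), and it was not called in 12 of 24 alternative fits, such as an offset for GC content (FDR = 0.107) or with the edgeR exact test on these libraries alone (FDR = 0.0823). Not every gene had a higher value with EGF. NOP56 (-0.12 ± 0.08, FDR = 0.38) and FBL (-0.09 ± 0.12, FDR = 0.743), a scaffold and the methyltransferase of box C/D snoRNPs, had values below 0 and were not called.

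**Figure D2:**
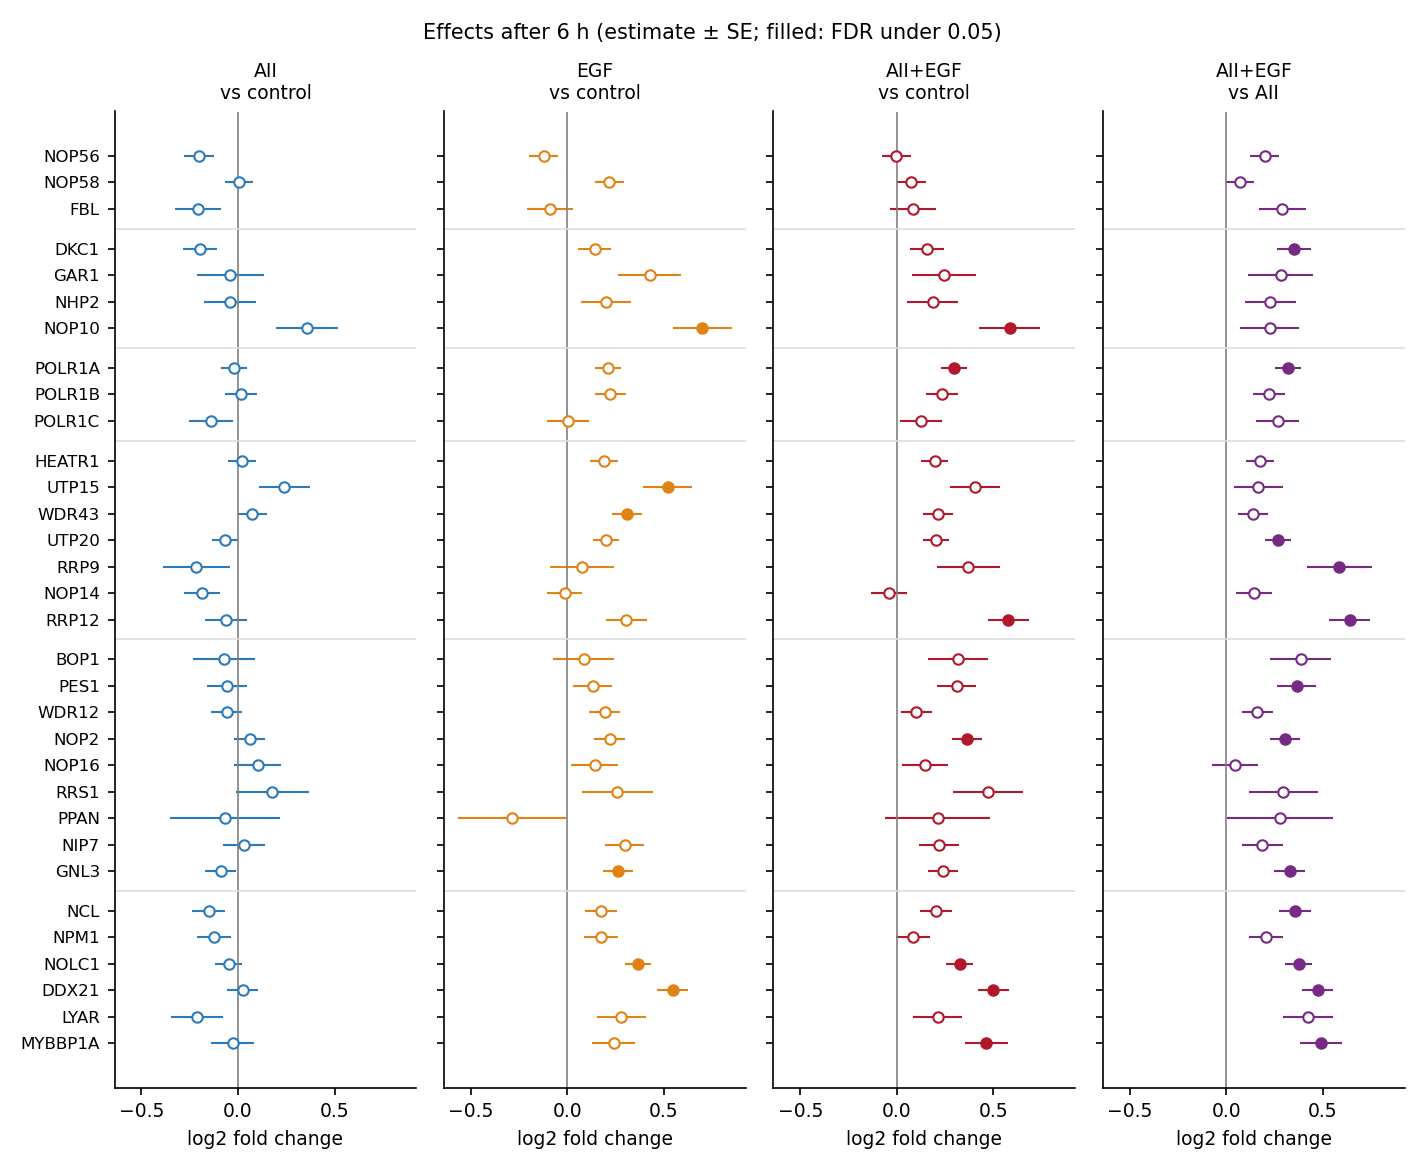
Log2 fold changes (x axis) of the 32 genes (y axis, grouped from top to bottom as box C/D snoRNP, box H/ACA snoRNP, RNA polymerase I, small subunit, large subunit, and abundant or regulatory nucleolar proteins) after 6 h in 4 comparisons. Points are estimates ± SE and filled points have an FDR under 0.05; no point is filled for AII, 6 for EGF, 7 for AII+EGF against control and 12 for AII+EGF against AII, all to the right of 0.

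The sequence before the start site was searched for 3 motifs, chosen with the values already seen, on both strands of the 250 bases upstream of each RefSeq start (GRCh38.p14). Of the 32 genes, 27 matched the table used, with 34 start sites. The E-box CACGTG, a palindrome bound by MYC and its partner MAX, was found before 4 start sites (DDX21, LYAR, NOP10 and UTP20), or 11.8%, against 6.34% of all 35116 start sites and 16.5% of the 91 start sites of other ribosome biogenesis genes. The windows are shown because DDX21 and NOP10 had the clearest rise and the largest fold change, and UTP20 rose when EGF was added to AII, with the E-box in capitals:
DDX21, chr10:68956604-68956633, plus strand: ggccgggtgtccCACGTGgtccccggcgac
NOP10, chr15:34343274-34343333, minus strand: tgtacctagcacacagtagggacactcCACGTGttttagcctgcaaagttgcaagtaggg
NOP10, chr15:34343137-34343196, minus strand: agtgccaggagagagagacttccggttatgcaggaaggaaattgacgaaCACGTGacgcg
UTP20, chr12:101280045-101280104, plus strand: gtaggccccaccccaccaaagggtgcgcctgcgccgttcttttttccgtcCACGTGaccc
The E-box ended 25 bases before the DDX21 start, 1 of 2 starts listed for this gene, 164 and 5 bases before the NOP10 start and 4 bases before the UTP20 start. These windows were chosen by the values of their genes, and the LYAR window is not shown. NOLC1, UTP15, WDR43 and GNL3, also called for EGF, were not among the genes in which an E-box was found. The GC-rich motif CGCCCCCGC, a form of the EGR1 site, was found before NOP56 only, against 4.72% of all start sites. The AP1 motif TGAGTCA (4.2% of all) was not found before any of the 34 start sites. These are matches of letters and no binding was measured. The MYC transcript itself was not called with EGF after 6 h (-0.09 ± 0.08, FDR = 0.591). After 24 h the MYC value was 0.45 ± 0.11 (FDR = 0.217), with all EGF libraries above all control libraries. The part of MYC in the values of the 32 genes was not tested.

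No effect of AII alone on the 32 genes was detected after 6 h. The summed level was 3940 to 4463 FPM with AII and overlapped with control. None of the 32 genes was called by edgeR, DESeq2 or voom, as none of all 18618 genes was (0%), and 3 of 32 had an unadjusted p below 0.05, as did 4.54% of all genes. Of these, NOP10 had a positive value and NOP56 and DKC1 had negative values. The median log2 fold change was -0.05, with 11 of 32 values above 0, and in no gene did all AII libraries lie above all control libraries, as in 0.978% of all genes. For DDX21 the 95% interval of the AII effect was -0.14 to 0.19, for NOLC1 -0.19 to 0.10 and for NCL -0.33 to 0.02 on the log2 scale.

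With AII+EGF, the rise over control after 6 h comprised 7 genes, against 4% of all genes that were higher and 2.11% that were lower. The 7 were DDX21, NOLC1, NOP10, RRP12, MYBBP1A, NOP2 and POLR1A, and none of the 32 was lower. The summed level was 4848 to 5320 FPM, above the range of control. In total 30 of 32 log2 fold changes were positive, with a median of 0.22 (-0.01 for all genes), and in 14 genes all AII+EGF libraries lay above all control libraries, as in 6.77% of all genes. No gene of the 32 passed the filters of the study, as 1.95% of all genes did. Without the first control library, 11 of the 32 genes were called. NOP10 and MYBBP1A each lost their call when 1 of several libraries was left out (highest FDR = 0.098 and 0.0527), whereas the other 5 kept it in the 24 alternative fits and at an FDR of 0.01. The comparisons of EGF and of AII+EGF with control share the 4 control libraries, so their values are not independent.

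A further view of the EGF effect came from AII+EGF against AII, which shares no library with EGF against control. Here 12 genes were higher and none lower, against 3.92% and 2.01% of all genes. These were DDX21, NOLC1, NCL, MYBBP1A, RRP12, RRP9, UTP20, POLR1A, DKC1, NOP2, PES1 and GNL3. Of these, DDX21, NOLC1, MYBBP1A, RRP12 and POLR1A were called in all 24 alternative fits and at an FDR of 0.01, but of these only RRP12 also passed the filters of the study. All 32 values were positive, with a median of 0.28 (-0.02 for all genes), and in 15 genes the groups did not overlap, as in 7.12% of all genes. RRP9 and RRP12 passed the filters of the study, as did 1.87% of all genes. The count dropped to 7 when the replicate 1 or 2 of AII or replicate 3 or 4 of AII+EGF was left out. Across both EGF comparisons, 28 of the 32 genes had positive values in both, as did 28.5% of all genes, and DDX21, NOLC1 and GNL3 were called in both, as were 2.05% of all genes. Without an offset for GC content, the order of the effects was not shared: across the 32 genes, Spearman's rho between both EGF effects was 0.10 and Pearson's r was 0.08. The 2 effects had opposite trends with GC content, as given below, and the part of these trends in the order was not tested. In the 2 runs of library numbers taken apart, with 2 libraries per condition, 25 and 29 of 32 genes had positive values for EGF, and 32 and 30 for AII+EGF against AII.

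**Figure D3:**
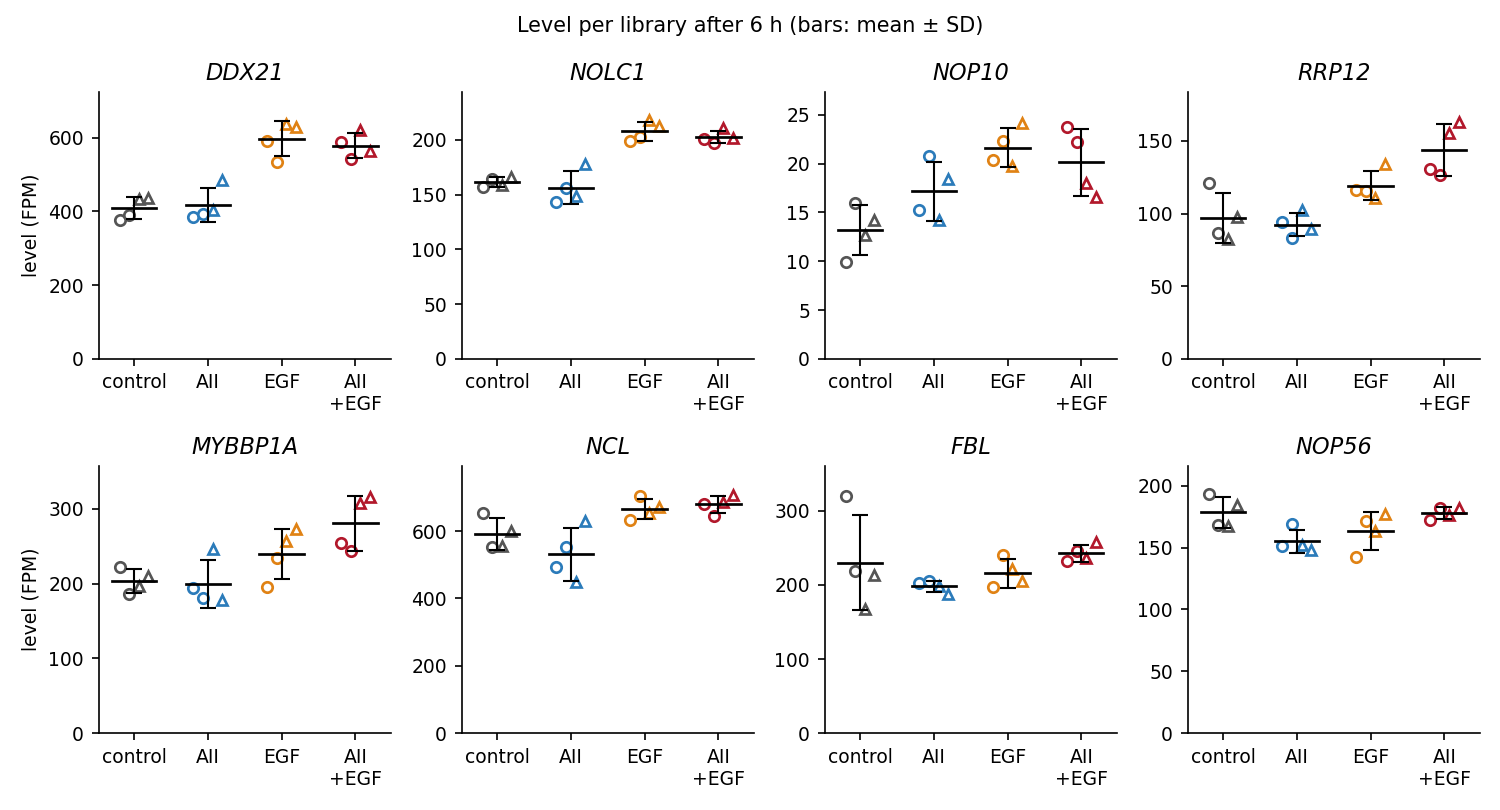
Level in FPM (y axes, from 0) of 8 genes by condition (x axis) in the 16 libraries after 6 h. Each symbol is 1 library (circles, low run; triangles, high run), with mean ± SD; DDX21 and NOLC1 separate the EGF and AII+EGF libraries from all others, whereas FBL and NOP56 overlap between control and EGF.

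The box C/D and box H/ACA snoRNP core proteins, which carry 2'-O-methylation and pseudouridylation, did not move as 2 blocks. Of the 3 box C/D proteins (NOP56, NOP58, FBL), none was called in any comparison after 6 h. With other tools, DESeq2 called NOP58 for EGF, and the edgeR exact test called FBL for AII+EGF against AII. NOP56 was at 194, 169, 167 and 185 FPM in control, 151, 169, 152 and 148 with AII, 143, 172, 163 and 178 with EGF and 172, 182, 177 and 182 with AII+EGF. Its AII+EGF libraries lay above its AII libraries but within the range of control, with 0.20 ± 0.08 against AII (FDR = 0.132). FBL was at 319.6, 219, 167 and 213 FPM in control, so that the first control library alone stood far above the rest, and at 202, 205, 198 and 188 with AII, 197, 240, 221 and 205 with EGF and 232, 245, 236 and 257 with AII+EGF. Its value of -0.09 for EGF turned to 0.11 without that control library and to 0.07 with voom. FBL had 0.29 ± 0.12 for AII+EGF against AII (FDR = 0.17). Without the first control library, FBL was called for AII+EGF against control (FDR = 0.0429) and against AII.

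Of the 4 box H/ACA proteins (DKC1, GAR1, NHP2, NOP10), NOP10 was called for EGF and for AII+EGF, and DKC1 only in AII+EGF against AII. DKC1, the pseudouridine synthase that is also part of telomerase, was at 147, 126, 149.7 and 139 FPM in control and 135, 152, 167 and 164 with EGF, groups that overlapped. It was at 119.8, 119, 116 and 136 FPM with AII and at 140.1, 145, 169 and 169.9 with AII+EGF, which did not overlap (0.35 ± 0.09, FDR = 0.0153). NOP10 had only 0.22 ± 0.15 in that comparison (FDR = 0.455), its AII libraries being at 15.2, 20.8, 14.2 and 18.4 FPM and its AII+EGF libraries at 23.8, 22.2, 18.01 and 16.5 FPM. NHP2 shares 28.0% of its exon length with another annotated gene, so its counts are uncertain where reads fall in both.

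RNA polymerase I transcribes the ribosomal RNA precursor, and POLR1A and POLR1B form its catalytic core, while POLR1C is shared with RNA polymerase III. POLR1A, the largest subunit, was called with AII+EGF against control (0.30 ± 0.07, FDR = 0.00796) and against AII (0.32 ± 0.07, FDR = 0.00439). For EGF alone it had 0.21 ± 0.07 and missed the threshold (FDR = 0.0672) that it passed with DESeq2 and voom, and its 4 EGF libraries (257, 269, 279 and 302 FPM) lay above its 4 control libraries (227, 242, 247 and 240.5 FPM). POLR1B was at 83.96, 97.5, 109 and 106 FPM in control, 94.9, 101, 102 and 103 with AII, 117, 102, 116 and 127 with EGF and 119.7, 119, 119 and 109.9 with AII+EGF. Its values of 0.22, 0.24 and 0.22 in the 3 comparisons were alike in size and none was called (FDR = 0.114, 0.0975 and 0.12), although voom called it against AII (FDR = 0.0399).

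Of the 7 small subunit proteins (HEATR1, UTP15, WDR43, UTP20, RRP9, NOP14, RRP12), 2 were called for EGF, 1 for AII+EGF and 3 for AII+EGF against AII. RRP12 (ENSG00000052749, chr10:99116115-99185833, minus strand), which takes part in the maturation and export of both subunits, had the largest rise of AII+EGF over AII. It was at 121, 86.4, 82.4 and 97.4 FPM in control, 94.3, 83.4, 102 and 89.5 with AII, 116, 115, 111 and 134 with EGF and 130.5, 126, 155 and 163 with AII+EGF. The AII+EGF libraries lay above all control and AII libraries, with 1.49-fold against control (log2 0.58 ± 0.11, FDR = 0.00128) and 1.56-fold against AII (0.64 ± 0.11, FDR = 0.00051). For EGF alone the RRP12 value was 0.31 (FDR = 0.0946), and 0.40 with an offset for GC content (FDR = 0.00115). RRP9, which binds the U3 snoRNA needed for the first cuts, was at 28.2, 16.3, 15.1 and 22.7 FPM in control, 19.2, 22.3, 20.8 and 23.4 with EGF, 18.1, 14.6, 21.7 and 15.5 with AII and 23.4, 22.2, 28.8 and 30.4 with AII+EGF. It was called only against AII (0.59 ± 0.17, FDR = 0.0376), and the first control library had a level near the highest of AII+EGF. UTP20, a scaffold of the processome, had 0.20 ± 0.07 for EGF (FDR = 0.0798) and 0.27 ± 0.07 for AII+EGF against AII (FDR = 0.0177), so that 1 of the 2 values passed the threshold and the difference between them was not tested. HEATR1 shares 23.1% and NOP14 20.7% of exon length with other genes, NOP14 with an antisense transcript, and the strand setting of the counting is not given in the sources used here.

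The large subunit group held 9 genes, of which GNL3 was called for EGF, NOP2 for AII+EGF, and PES1, NOP2 and GNL3 for AII+EGF against AII. PES1, BOP1 and WDR12 form 1 complex (PeBoW) that is needed for the large subunit. BOP1 was at 98.3, 63.3, 59.02 and 69.3 FPM in control, 64.5, 58.4, 101 and 48.8 with AII, 71, 80.1, 76.2 and 78.2 with EGF and 85.8, 85.9, 85.8 and 101 with AII+EGF. Both the control and the AII libraries held 1 value near 100 FPM, and no comparison with them was called (0.09, 0.32 and 0.39, FDR = 0.825, 0.281 and 0.163). With voom, BOP1 was called for AII+EGF against control and against AII, and without the third AII library its value against AII was 0.64 (FDR = 0.00399). PES1 had 0.36 ± 0.10 for AII+EGF against AII (FDR = 0.0333) and 0.13 ± 0.10 for EGF (FDR = 0.512). NOP2, a methyltransferase of the large subunit rRNA, had 0.22 ± 0.08 for EGF (FDR = 0.106), 0.36 ± 0.08 for AII+EGF (FDR = 0.00513) and 0.30 ± 0.08 for AII+EGF against AII (FDR = 0.0212). With an offset for GC content, the NOP2 value for EGF was 0.28 (FDR = 0.00464).

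NOP16, a large subunit assembly protein, was at 23.4, 20.6, 27.02 and 24.8 FPM in control, 21.7, 26.2, 29.2 and 25.2 with AII, 23.6, 26.9, 27.9 and 26.8 with EGF and 30.2, 27.4, 21.5 and 26.9 with AII+EGF. These ranges overlapped and its largest value in the 3 comparisons was 0.15 ± 0.12 (FDR = 0.569). RRS1, which helps to place the 5S RNP in the large subunit, was at 12.7, 13.2, 10.3 and 14.1 FPM in control, 13.1, 15.4, 19.2 and 8.13 with AII, 13.7, 13.1, 17.4 and 16.1 with EGF and 16.4, 14.5, 21.1 and 17.7 with AII+EGF. All AII+EGF libraries lay above control (0.47 ± 0.18), but at this low level the value was not called (FDR = 0.143). PPAN was the least precise of the 32 genes, at 2.87 to 8.04 FPM over all 16 libraries, and 49.2% of its exon length is shared with neighbouring genes.

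Of the 6 abundant or regulatory nucleolar proteins (NCL, NPM1, NOLC1, DDX21, MYBBP1A, LYAR), 2 were called for EGF, 3 for AII+EGF and 4 for AII+EGF against AII. NCL, which binds rRNA precursors and rDNA chromatin, was at 654, 552, 556 and 599 FPM in control, 495, 551, 448 and 631 with AII, 633, 705, 653 and 670.4 with EGF and 679.6, 645, 685 and 707 with AII+EGF. It was called against AII (0.36 ± 0.08, FDR = 0.0102), where the groups did not overlap, and not against control for EGF (0.17 ± 0.08, FDR = 0.242) or AII+EGF (0.20 ± 0.08, FDR = 0.17), where voom called it. MYBBP1A, a nucleolar protein that can bind MYB and p53, was at 222, 186, 197 and 210.1 FPM in control, 196, 234, 257 and 272 with EGF and 254, 244, 308 and 315 with AII+EGF. With AII it was at 194, 181, 246 and 178 FPM, which overlapped with AII+EGF. Its value was 0.24 ± 0.11 for EGF (FDR = 0.222) and 0.46 ± 0.11 for AII+EGF (FDR = 0.0111), the latter with all libraries above control. With an offset for GC content, MYBBP1A was called for EGF alone as well (0.33, FDR = 0.00227).

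NOLC1 was at 143, 156, 149 and 178 FPM with AII and at 200.3, 197, 211 and 202 FPM with AII+EGF, and was called in all 3 comparisons, with 0.36, 0.33 and 0.38. DDX21 was called in all 3 as well, with 0.54, 0.50 and 0.47. NPM1 (nucleophosmin), a histone and ribosome chaperone, was at 308, 325, 309 and 310.1 FPM in control and 327, 359, 375 and 351 with EGF, which did not overlap, at 241, 293, 267 and 351 with AII and at 332, 293, 359.9 and 340 with AII+EGF. No NPM1 value was called by edgeR in the main fit, DESeq2 or voom (0.17, 0.08 and 0.21, FDR = 0.276, 0.686 and 0.191). NPM1 was called for AII+EGF against AII with an offset for GC content (0.28, FDR = 0.0466) and without the fourth AII library. The 45 NPM1 pseudogene rows in the table together held 86.5% to 132% of the NPM1 count after 6 h, so that its level depends on how reads were divided between copies.

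The members not yet described in the 3 comparisons with EGF after 6 h were NOP58, GAR1, NHP2, POLR1C, HEATR1, NOP14, WDR12, NIP7, PPAN and LYAR, and none of them was called. DESeq2 called NOP58 for EGF, DESeq2, voom and the exact test called LYAR for AII+EGF against AII, and voom called HEATR1 in that comparison. In alternative edgeR fits, NIP7 was called for EGF with an offset for GC content (0.30, FDR = 0.0492) and with library series as a block. GAR1 was called for EGF without a filter on low counts. LYAR and HEATR1 were also called with the GC offset for AII+EGF against AII. In the main fit, the log2 fold changes of these members for EGF lay between -0.29 (PPAN) and 0.43 (GAR1). Those for AII+EGF against AII lay between 0.07 (NOP58) and 0.42 (LYAR). GAR1, a core protein of the box H/ACA snoRNPs, was at 14.6, 18.7, 13.2 and 20.01 FPM in control and 17.3, 23.01, 21.8 and 27.4 with EGF, which overlapped. LYAR, a zinc finger protein of the nucleolus and one of the 4 genes with an E-box upstream, was at 21.1, 25.4, 20.2 and 32.01 FPM with AII and 31.1, 32.5, 37.9 and 29.02 with AII+EGF. NOP58, the partner of NOP56 in the box C/D particle, was at 119, 128, 130.1 and 123 FPM in control and 145, 137, 157 and 142 with EGF, which did not overlap, but at 137, 127, 123 and 139 FPM with AII+EGF, which did.

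AII added no called change to EGF. Of the 32 genes, none was called in AII+EGF against EGF by edgeR, DESeq2 or voom. Among all genes, edgeR called 0%, DESeq2 1 gene and voom 3. With edgeR, only RRP12 had an unadjusted p below 0.05, as did 7.26% of all genes (0.27 ± 0.10, FDR = 0.677). BOP1 was the only gene whose 4 AII+EGF libraries all lay above the 4 EGF libraries, against 2.85% of all genes (0.23 ± 0.15, FDR = 0.722). With an offset for GC content per library, the RRP12 value was 0.13 and the BOP1 value 0.01. The median of the 32 values was 0.01 and 18 were positive. In the interaction, which is the log2 effect of both ligands less that of each one alone, none was called by the 3 tools (0% of all genes) and 5 had an unadjusted p below 0.05, as did 8.01% of all genes. These were RRP9 with 0.51 ± 0.23, FBL with 0.38 ± 0.17, RRP12 with 0.33 ± 0.15 and NOP56 with 0.32 ± 0.11 above 0, and NOP10 with -0.47 ± 0.22 below 0 (FDR = 0.614, 0.606, 0.607, 0.592 and 0.61). The 95% interval of the interaction of DDX21 was -0.30 to 0.16 and that of NOLC1 -0.19 to 0.21, on the log2 scale.

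The differences between AII+EGF and EGF followed the base composition of the transcripts. Across the 32 genes, Spearman's rho between the log2 difference and the GC content of the longest transcript was 0.79, and across 11090 protein-coding genes it was 0.69. The 9 genes with a GC content above 55% (MYBBP1A, RRP12, RRP9, BOP1, PES1 and others) had a median of 0.22, and the 14 genes below 45% (DDX21, NCL, GNL3 and others) a median of -0.08, beside 0.15 and -0.08 for protein-coding genes in the same ranges. Across the 32 genes, rho was -0.38 for EGF against control and 0.50 for AII+EGF against AII. With an offset for GC content per library, which was added after these values were seen, 10 genes were called for EGF, 14 for AII+EGF and 15 for AII+EGF against AII, none of them lower, and none for AII+EGF against EGF or the interaction. The median for EGF was then 0.21 and that for AII+EGF 0.22. Genes and libraries are shared by all these points, and what caused the GC pattern was not tested.

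**Figure D4:**
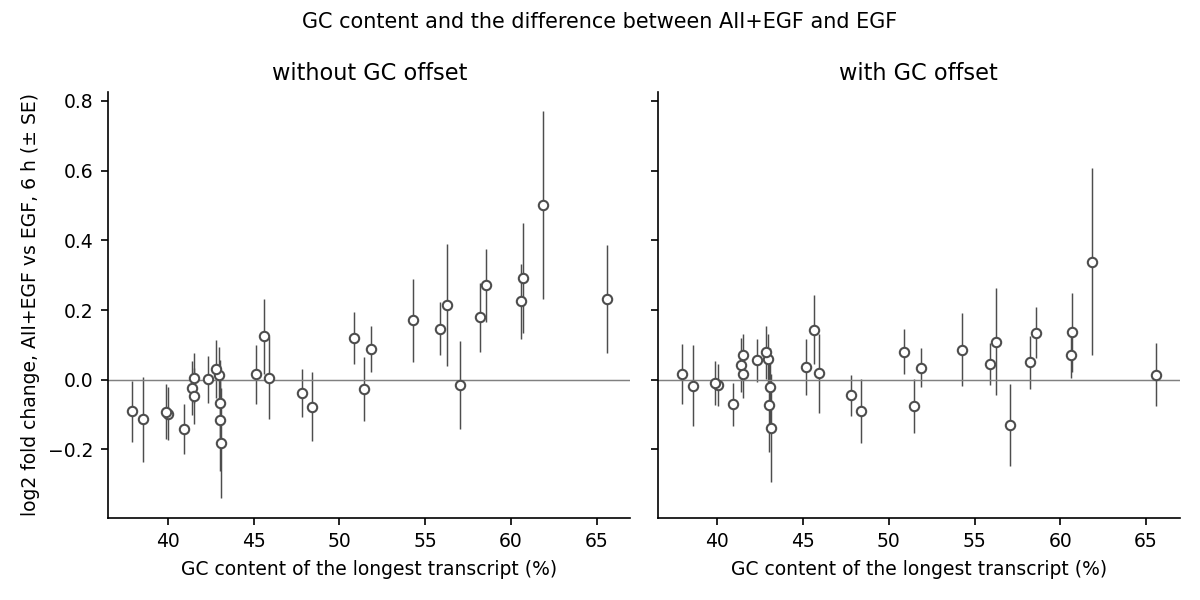
Log2 fold change of AII+EGF against EGF after 6 h ± SE (y axis) by GC content of the longest transcript in percent (x axis) for the 32 genes, without (left) and with (right) an offset for GC content. Each point is 1 gene; Spearman's rho is 0.79 on the left and 0.36 on the right.

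After 24 h the summed level of the 32 genes was 2399 to 2741 FPM in control, 2393 to 2770 FPM with AII, 2778 to 2980 FPM with EGF and 2682 to 2823 FPM with AII+EGF. By this sum, the EGF libraries lay above the control libraries, and the AII+EGF libraries overlapped with control. The gap between 2741 and 2778 FPM was small. NCL, which weighs heavily in the sum, itself overlapped, with 602 to 814 FPM in control and 748 to 892 FPM with EGF. No gene of the 32 was called in any comparison by edgeR, DESeq2 or voom. With edgeR, 0.0316% of all 22174 genes tested were higher with EGF, 0.0271% with AII+EGF and 0.0451% with AII+EGF against AII. In either direction, DESeq2 called 98, 46 and 49 genes in these comparisons, and voom 2, 39 and 61. With AII against control the share was 0%, and 12 of 32 values were positive. In that comparison 1 gene had an unadjusted p below 0.05 (2.49% of all genes). With EGF, 24 of 32 values were positive (median 0.12) and 4 had an unadjusted p below 0.05 (8.48% of all genes). With AII+EGF 21 were positive (median 0.06) and none had (5.4% of all genes). Without the 2 libraries with the highest share of U1, no gene was called either.

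The 4 genes with p below 0.05 for EGF after 24 h were DDX21, NOLC1, GNL3 and RRP12, of which the first 3 had also been called after 6 h. DDX21 was at 201, 209.7, 181 and 171 FPM in control and 229.7, 248, 228 and 223 with EGF, without overlap (0.28 ± 0.11, FDR = 0.473). NOLC1 was at 106, 118, 132 and 119 FPM in control and 142, 135, 133 and 145 with EGF (0.23 ± 0.10, FDR = 0.558). RRP12 was at 17.9, 22.6, 26.97 and 25.8 FPM in control and 30.7, 29.3, 28.1 and 31.4 with EGF (0.35 ± 0.16, FDR = 0.546). These 3 were the genes whose EGF libraries all lay above control, against 2.35% of all genes, and with AII+EGF there was none, against 3.99%. All AII+EGF libraries lay above all AII libraries for GNL3 and WDR12, against 3.81% of all genes, and below them for WDR43, against 3.14%. They lay above all EGF libraries for no gene, against 2.81%, and below them for NCL, UTP15 and RRP12, against 2.27%. With EGF against control, GNL3 overlapped, with 135, 152, 127 and 146 FPM in control and 190.1, 168, 155 and 146 with EGF (0.23 ± 0.11, FDR = 0.575). NOP10, the gene with the largest fold change after 6 h, was at 9.29, 13.4, 10.2 and 11.4 FPM in control and 12.1, 6.11, 12.1 and 17.6 with EGF, which overlapped fully.

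Whether the effects differed between 6 h and 24 h was tested in a joint fit. None of the 32 genes was called for EGF (smallest edgeR FDR = 0.283) or for AII+EGF (smallest edgeR FDR = 0.465) by edgeR or DESeq2. With edgeR, the effect was called lower after 24 h for 0.0912% and 0.0866% of 21932 genes, and higher for 0.0821% and 0.0365%. DESeq2 called 116 and 69 of 16104 genes in either direction. For EGF, 4 genes had an unadjusted p below 0.05 (NOP58, POLR1A, WDR43 and UTP20), and for AII+EGF 6 (POLR1A, UTP15, WDR43, RRP12, NOP2 and DDX21), all with the smaller effect after 24 h. Of all genes, 10.1% and 7.49% had such a p in the 2 comparisons. The median difference was -0.09 for EGF and -0.19 for AII+EGF, while it was -0.01 and -0.02 for all genes. At this precision, no single gene showed a difference between the times that passed the test.

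**Figure D5:**
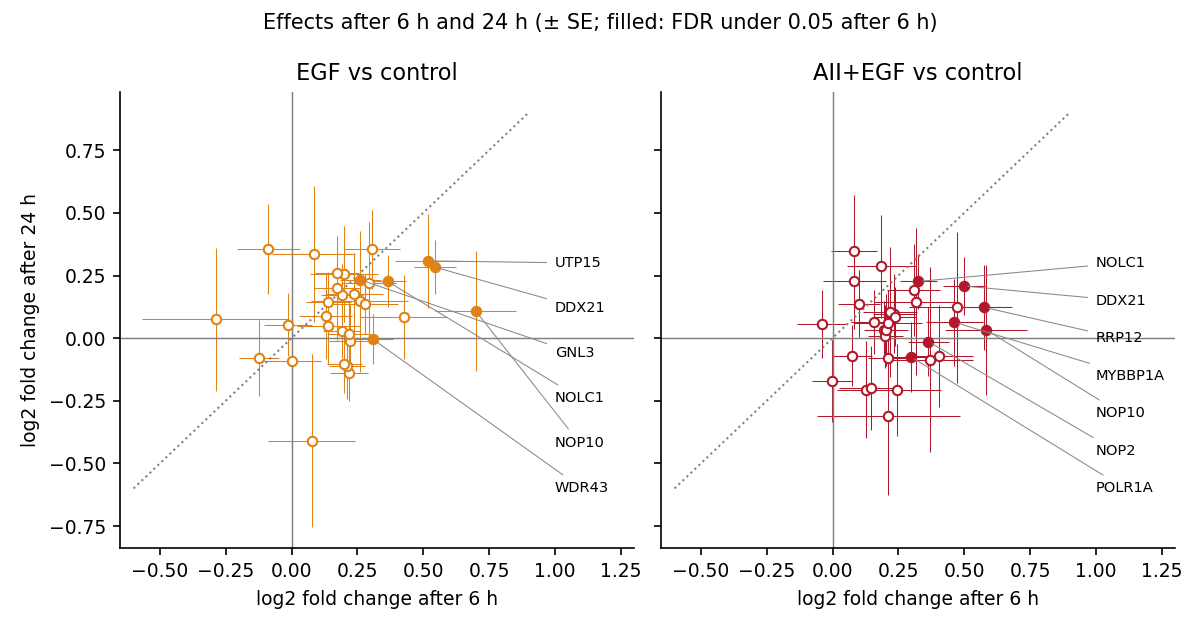
Log2 fold change after 24 h (y axis) against that after 6 h (x axis) for the 32 genes, for EGF (left) and AII+EGF (right) against control. Bars are ± SE, filled points, named at the right with a line, were called after 6 h, and the dotted line marks equal effects. All filled points lie below the line, but they were chosen by their value after 6 h, which favours that place. No gene was called for a difference between the times.

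Beyond the 32 genes, a list of 100 other ribosome biogenesis genes was counted in the same fits. After 6 h, 7 of them were higher with EGF and none lower, 8 were higher with AII+EGF and 15 for AII+EGF against AII, again with none lower. Of all genes tested, 3.6%, 4% and 3.92% were higher in these 3 comparisons, and 2.37%, 2.11% and 2.01% were lower. Among those called for EGF, the 3 with the largest rise were MAK16 (0.55 ± 0.09, FDR = 0.000783), WDR36 (0.42 ± 0.11, FDR = 0.0241) and LTV1 (0.41 ± 0.11, FDR = 0.0208). MAK16 and WDR36 act in the large and the small subunit pathway, and LTV1 is a small subunit export factor. The median of the 100 genes was 0.13 for EGF, below the 0.20 of the 32 genes and above the -0.01 of all genes. The 79 cytosolic ribosomal protein genes, whose products the machinery assembles, had a median of -0.03 for EGF, with none higher and 2 lower (2.37% of all genes were lower). Their median was -0.03 for AII+EGF and 0.09 for AII+EGF against AII, where 60 of 79 values were positive, with none called in either. The difference between these lists was not tested.

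Several of the 32 genes also house snoRNAs in their introns, so that the host transcript and the guide RNA come from 1 precursor. The annotation places 23 snoRNA or scaRNA genes on the same strand within 8 of the 32 genes, among them NOP56, NOP58, GNL3, NCL and WDR43. Their counts were at most 36 in a library after 6 h and 69 after 24 h, and 6 of the 23 had no count in any library after 6 h. Some of them, such as SNORD110, SNORD86, SNORA36A and SNORA56, overlap annotated exons of their hosts, so their counts are uncertain where reads fall in both. With counts this low, no comparison of the guides with their hosts could be made, and the cause of the low counts was not tested. RNA shorter than the library fragments may be recovered poorly, which was not tested.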

How the data were processed

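The deposited count tables hold raw read counts per Ensembl gene, 1 table per time point. Per the labels and methods, the authors depleted ribosomal RNA (RiboMinus), sequenced paired ends, trimmed reads with Trim Galore and cutadapt 1.8.1, aligned them to hg19 with TopHat2 2.0.14 (the series text names HISAT2, which the methods give for stably transfected samples not analysed here) and counted with featureCounts 1.4.6. Of 32 labelled libraries 31 had a column and were analysed, and 8 of the 15 columns after 24 h carry the word filtered in their names without an explanation.

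Counts were filtered with filterByExpr, scaled with TMM and tested with the edgeR 4.0.16 quasi-likelihood F test in R 4.3.3, with 1 fit per time point over the 4 conditions. P-values were adjusted over all genes tested with the Benjamini-Hochberg method, and a gene was called at FDR below 0.05. The difference between times came from 1 joint fit. The test of EGF against control was also run on simulated counts with known changes in genes above 5 FPM. After 6 h it called 23.9% of genes changed 1.25-fold, 65.7% of those changed 1.5-fold and 93.9% of those changed 2-fold. After 24 h these shares were 1.49%, 19.4% and 77.3%, so small changes were mostly missed. The alternatives were DESeq2 1.42.0, limma 3.58.1 (voom with quality weights), the edgeR exact test, DESeq2 size factors, no filter, protein-coding genes only, library series as a block, each library left out and an FDR of 0.01. The study's filters and the GC offset were added after the data were seen. Locations and exon lengths are from GENCODE v44 lifted to hg19, and promoters from RefSeq on GRCh38.p14. The strand setting of the counting is not given in the sources used here.

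The members and lists were chosen with earlier results of these data known. Values in every library were given for members that open each role group and for called or non-overlapping members. Of the other biogenesis genes, the 3 with the largest called rise or fall were named.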

Additional observations from a re-analysis of the deposited data

Results flagged for a closer look

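Over the 32 genes and the groups of 4 libraries, 224 sets of values were searched for a single distant library. The search gave 7, where chance gives about 1 in 20 sets, or 11.2. NPM1 was highest in the second control library after 6 h, at 324.7 FPM against 308.3 to 310.1, and in the second control library after 24 h, at 320.7 FPM against 188.3 to 209.8. In the fourth AII+EGF library after 6 h, POLR1B was lowest at 109.9 FPM against 118.8 to 119.7, and BOP1 was highest at 101.1 FPM against 85.78 to 85.91. After 24 h with EGF, the first library was highest for NOP14, at 77.94 FPM against 54.49 to 57.2, and for RRS1, at 7.621 FPM against 5.803 to 6.095, and the second was lowest for NHP2, at 12.54 FPM against 16.65 to 17.24. No cause was tested.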

How the results depend on the processing

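The alternatives moved how many of the 32 genes were called after 6 h, but in none was a gene called lower. For EGF (6 called), 3 were called at an FDR of 0.01, 1 with the study's filters and 10 with the GC offset. For AII+EGF against control (7 called), none (0) passed the study's filters, and 12 were called with voom and 14 with the GC offset. For AII+EGF against AII (12 called), 5 were called at an FDR of 0.01 and 2 with the study's filters. Leaving out each library in turn gave 4 to 7 genes for EGF, 6 to 11 for AII+EGF against control, with 11 without the first control library, and 7 to 14 for AII+EGF against AII, with 14 without the first control library. It gave 0 to 0 in every other comparison, at both times and for the difference between times. The stricter settings are stricter by construction, and the cause of the other moves was not tested.

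Of the 77 single log2 fold changes, 25 were called, and 13 of these were called in all alternative fits at an FDR of 0.05, with none of the study's filters applied. Values that changed sign were all uncalled in the main fit, where they lay between -0.09 and 0.08. NOP56 for AII+EGF against control (-0.0027) was 0.0039 with DESeq2, 0.021 without a filter, 0.014 with voom and -0.032 to 0.044 with libraries left out. FBL for EGF was 0.068 with voom and -0.21 to 0.11 with libraries left out. FBL for AII+EGF against control was -0.042 to 0.29, and was called without the first control library (FDR = 0.0429). RRP9 for EGF was -0.036 to 0.25, and NOP16 for AII+EGF against AII was -0.030 to 0.14. Low counts limit PPAN, RRS1, RRP9 and NOP10, and the spread after 24 h limits every gene. Shared sequence limits NPM1 and PPAN most, and also NHP2, HEATR1 and NOP14. It further limits NOP16 (18.6% of exon length shared), NIP7 (18.4%) and POLR1C (18.3%). Pseudogene rows held counts of up to 24.0% of the NIP7 count after 6 h, and up to 27.1% of the NHP2 count after 24 h. No paired analysis was possible because replicate numbers are not in the labels. The run of library numbers was used as a block instead, and left each count within 1.5 times of its value.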

Other observations

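The gene SNORD3A encodes the U3 snoRNA, whose particle holds RRP9, FBL, NOP56 and NOP58 and guides the first cuts of the rRNA precursor. It was looked at after its values had been seen. After 6 h it was at 41.9, 135, 1175 and 1499 FPM in the 4 control libraries, 310, 1144, 519.7 and 925 with AII, 240.4, 1183, 1289 and 1652 with EGF and 658, 707, 1190.0 and 1355 with AII+EGF. Libraries of 1 group thus differed far more from each other than the groups did, and with EGF the log2 fold change was 0.61 ± 0.65 (FDR = 0.657, edgeR quasi-likelihood test). The control library with the lowest U3 level was the one with the highest FBL and RRP9 levels, at 41.9 FPM of U3, 319.6 FPM of FBL and 28.2 FPM of RRP9. No relation between these levels was tested.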
